A study of Mus musculus with 6 samples.

Results

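The 40 genes described here are the transcripts of the mouse mitochondrial genome and the nuclear genes that copy, process, stabilise and translate them. They were chosen by name from the 22274 genes of the deposited table: the 13 rows whose annotated symbol starts with mt-, and 27 nuclear-encoded factors with established roles in mitochondrial transcription, RNA processing, genome replication and translation. All 40 had enough reads to be among the 14005 genes tested. Ileal epithelial cells of mice were sequenced in bulk, in 3 Ogt knockout libraries and 3 control libraries. Ogt codes for O-GlcNAc transferase, which modifies serines and threonines of proteins in the nucleus and cytoplasm with a single sugar. The knockout mice carried floxed Ogt and Olfm4-CreER, a recombinase activated by tamoxifen and expressed from the crypt stem cell gene Olfm4. The control mice carried the floxed gene. Their titles read Olfm4Ctrl, and whether they carried the driver is not stated. Tamoxifen dosing on 3 consecutive days at 2 months of age, with collection on day 10, is described in a protocol attached to both groups alike, which speaks of the offspring of the cross. Effects of the driver or of the recombinase therefore cannot be told apart from those of losing Ogt.

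The mitochondrial genome is a small circle that encodes core subunits of the respiratory chain and of ATP synthase, together with the rRNAs and tRNAs needed to translate them. Each strand is transcribed from its own promoter region into long precursor RNAs, which are cut at the tRNAs that lie between most coding sequences, and the mRNAs are then polyadenylated and bound by stabilising proteins. Every protein that acts in these steps is encoded in the nucleus, so output depends on both genomes. The small intestinal epithelium is renewed continuously from crypt stem cells, and its absorptive cells rely heavily on respiration.

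The 13 mitochondrially encoded mRNAs were mt-Nd1 to mt-Nd6 and mt-Nd4l for complex I, mt-Cytb for complex III, mt-Co1 to mt-Co3 for complex IV, and mt-Atp6 and mt-Atp8 for ATP synthase. The annotation lists 37 genes on the mitochondrial chromosome, of which 2 are rRNAs and 22 are tRNAs, and the table analysed held no row for any rRNA or tRNA. Of the mRNAs, 12 are transcribed with the heavy-strand promoter and mt-Nd6 alone with the light-strand promoter. The sequences below show where 2 pairs of coding sequences share bases, which bears on how reads can be divided between them, with the shared bases in capitals.
mt-Atp8 into mt-Atp6: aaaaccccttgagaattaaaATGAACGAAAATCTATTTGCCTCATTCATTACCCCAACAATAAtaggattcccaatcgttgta
mt-Nd4l into mt-Nd4: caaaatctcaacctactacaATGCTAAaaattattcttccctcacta
The first pair shares 43 bases and the second 7 bases, in transcripts of GENCODE M21 (GRCm38, chromosome M, plus strand). The members of each pair lie on 1 RNA, and a read across the shared bases fits both rows. No source used here says how the authors divided such reads.

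The opening 60 bases of 3 coding sequences show the difference in composition between the strands and mark the ends of the comparison made below, with the start codon in capitals.
mt-Nd1: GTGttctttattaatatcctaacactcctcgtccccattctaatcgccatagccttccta
mt-Cytb: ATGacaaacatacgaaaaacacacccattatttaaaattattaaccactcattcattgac
mt-Nd6: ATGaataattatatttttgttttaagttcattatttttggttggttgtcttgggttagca
The whole mt-Nd6 coding sequence was 28.1% G and 5.97% C. The 12 heavy-strand mRNAs ran the other way, with 5.88% to 16.1% G and 22.1% to 30.0% C. The library kit does not mark the strand, so the mt-Nd6 row also takes any reads of RNA from the opposite strand of its sequence. The nuclear genome holds copies of mitochondrial sequence, and how reads that fit both were assigned is not given either.

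The libraries held 14389429 to 18076486 estimated counts. Ogt itself had 48.5, 43.0 and 36.0 CPM (counts scaled to a common library size) in the knockout libraries, against 140, 127 and 128 CPM in the control libraries, a log2 fold change of -1.63 ± 0.13 (SE, adjusted p = 0.00121, edgeR quasi-likelihood test with Benjamini-Hochberg adjustment over all tested genes). Of all genes tested, 18.7% passed the adjusted threshold of 0.05, with 9.33% higher and 9.37% lower in the knockout. Whether each library came from a different mouse is not labelled, and the p-values then measure only the spread between libraries, which may be technical. Epithelial markers were abundant in every library, with 8 genes summing to 16193 to 19519 CPM in knockout and 17605 to 22200 CPM in control libraries, and none passed the threshold, although 2 of them were lower in every knockout library than in any control. Among other markers, 4 of 8 enterocyte genes were lower (summed 16590 to 19576 CPM in knockout, 19292 to 29572 CPM in control), all 6 tuft cell genes tested were lower (13.6 to 18 against 86.4 to 89.7 CPM), 2 of 6 stromal genes were higher (380 to 452 against 274 to 382 CPM), and 2 of the 4 striated muscle genes tested were higher (180 to 561 against 20.7 to 68.3 CPM, with Tnnc2, Myh1 and Myh4 at 0). Of the goblet cell genes, 2 of 7 were lower (4775 to 8318 against 6828 to 15929 CPM), of the Paneth cell genes 1 of 8 (937 to 2210 against 178 to 1931 CPM), and of the lymphocyte genes 1 of 8 was higher (95.0 to 224 against 199 to 238 CPM). Control replicate 1 stood apart from the other controls in its enterocyte sum, 19292 CPM against 29572 and 29383 CPM, its goblet sum, 15929 against 8558 and 6828 CPM, and its smooth muscle sum, 924 against 2226 and 2140 CPM. Control replicate 2 stood apart in its Paneth sum, 178 CPM against 1931 and 1439 CPM. The part of these differences in the results below was not tested.

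The mitochondrial mRNAs together were a large share of each library. They took 10.1%, 7.55% and 10.2% of all counts in the knockout libraries, against 10.9%, 9.86% and 11.6% in the control libraries. Knockout replicate 2 was the lowest of the 6 and the groups overlapped. The knockout mean was 9.28% ± 1.505 and the control mean 10.8% ± 0.870 (SD, n = 3 each). The difference of -1.49 percentage points did not exceed the spread between libraries (two-sided exact permutation test, p = 0.3, where 3 against 3 libraries cannot go below 0.1; adjusted p = 0.3 over the 4 values computed per library), and without knockout replicate 2 it was -0.621. In bulk RNA, fewer cells of a type and less RNA per cell cannot be told apart.

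Per length, the control libraries held the 13 mRNAs in a wide range of levels. The complex IV catalytic subunit mRNA mt-Co1 stood highest, at 24434, 18505 and 26376 FPKM (fragments scaled to transcript length and library size) in knockout libraries, against 26127, 25031 and 30066 FPKM in control libraries. The mt-Co3, mt-Co2 and mt-Atp6 mRNAs followed, at 9731 to 14902 FPKM in knockout libraries and 11952 to 16224 FPKM in control libraries. The mt-Co2 and mt-Atp6 ranges overlapped each other within both groups, while within each single library mt-Co2 was above mt-Atp6. Lowest were mt-Atp8, at 718 to 1251 FPKM in knockout and 898 to 1068 FPKM in control libraries, and mt-Nd4l, at 634 to 841 FPKM in knockout and 764 to 1149 FPKM in control libraries. The mRNAs that share an RNA were far from equal by this measure. The FPKM ratio of mt-Atp6 to mt-Atp8 lay between 10.4 and 13.5 in knockout and between 12.9 and 13.3 in control libraries, and that of mt-Nd4 to mt-Nd4l between 5.26 and 5.64 in knockout and between 4.71 and 6.60 in control libraries. Both of the low rows are the shortest coding sequences, of 204 bases for mt-Atp8 and 297 bases for mt-Nd4l, and the lengths the authors divided by are not stated.

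**Figure D1:**
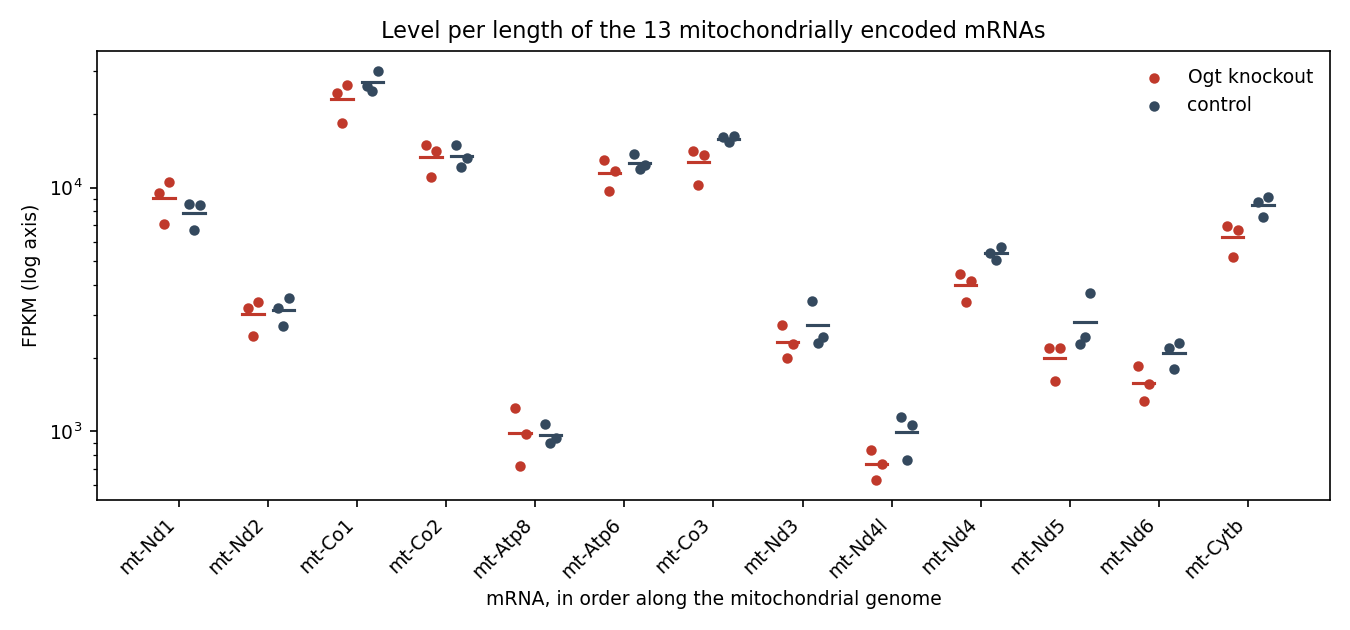
Level per length (FPKM, log axis) of the 13 mitochondrially encoded mRNAs in order along the genome, with 1 point per library (red, Ogt knockout; dark, control) and a line at each group mean. The 2 groups overlap for mt-Nd1 and mt-Atp8, while all 3 knockout points lie below all 3 control points for mt-Nd4 and mt-Cytb.

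No mitochondrial mRNA passed the threshold in either direction (0 of 13, edgeR quasi-likelihood test), where 9.37% of all genes were called lower. At an unadjusted p under 0.05, 6 were lower and none higher, against 17.5% and 16.5% of all genes. The fitted log2 fold change was below 0 for 12 of the 13, against 53.7% of all genes, and the median was -0.36 against -0.047 over all genes. Without knockout replicate 2, the library with the lowest CPM for all 13, the median was -0.24 against -0.057 over all genes. Every knockout library was below every control library in CPM for 6 of the 13 (mt-Co1, mt-Co3, mt-Nd4, mt-Nd5, mt-Nd6 and mt-Cytb), against 20.2% of all genes. In FPKM, the groups of mt-Co1 and of mt-Nd6 overlapped. DESeq2 on the estimated counts called 6 lower, where it called 11% of all genes lower. They were mt-Co3, mt-Nd4l, mt-Nd4, mt-Nd5, mt-Nd6 and mt-Cytb, with adjusted p between 0.00237 and 0.0340. Upper quartile scaling and limma voom each called 1 lower, mt-Nd4, where they called 9.3% and 9.13% of all genes lower. With library sizes unscaled, which moved the median of all genes to 0.089, 11 of the 13 were below 0.

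The genes at the end of the heavy-strand order had the lowest fitted values. The mRNA of cytochrome b, mt-Cytb, had 7933, 5635 and 7034 CPM in knockout libraries, against 10174, 9223 and 11132 CPM in control libraries. The groups did not overlap, and the log2 fold change was -0.57 ± 0.19 (adjusted p = 0.068, edgeR quasi-likelihood test). For mt-Nd4, a membrane arm subunit of complex I, the values were 6064, 4463 and 5249 CPM in knockout libraries, against 7623, 7369 and 8335 CPM in control libraries. These groups did not overlap either, with a log2 fold change of -0.56 ± 0.17 (adjusted p = 0.054, edgeR quasi-likelihood test). Its neighbour on the same RNA, mt-Nd4l, had 248, 179 and 201 CPM in knockout libraries, against 349, 241 and 336 CPM in control libraries, where the highest knockout library exceeded the lowest control library. Its log2 fold change was -0.56 ± 0.18 (adjusted p = 0.064).

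The mt-Nd5 mRNA, for another membrane arm subunit, had 3971, 2788 and 3690 CPM in knockout libraries, against 4261, 4705 and 7148 CPM in control libraries. Control replicate 3 was well above the other controls. The log2 fold change of -0.63 ± 0.24 (adjusted p = 0.105, edgeR) became -0.33 without that library. The light-strand mRNA mt-Nd6 had 955, 660 and 751 CPM in knockout libraries, against 1164, 992 and 1274 CPM in control libraries. The groups were close but did not overlap, with a log2 fold change of -0.54 ± 0.17 (adjusted p = 0.066). The complex IV mRNA mt-Co3 had 11072, 7669 and 9864 CPM in knockout libraries, against 12883, 12770 and 13530 CPM in control libraries. Every knockout library was lower, with the 3 controls close together, and the log2 fold change was -0.45 ± 0.19 (adjusted p = 0.129).

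At the other end, mt-Nd1 had 9072, 6443 and 9336 CPM in knockout libraries, against 8347, 6782 and 8647 CPM in control libraries. The highest and the lowest value were both in the knockout, and the log2 fold change was 0.064 ± 0.20 (adjusted p = 0.849, edgeR). The mt-Nd2 mRNA averaged 3002 ± 491 CPM in knockout and 3423 ± 467 CPM in control libraries (SD, n = 3 each). The mt-Co1 mRNA averaged 34087 ± 5974 CPM in knockout and 43887 ± 4786 CPM in control libraries, with non-overlapping groups and a log2 fold change of -0.36 ± 0.22 (adjusted p = 0.275, edgeR). Without knockout replicate 2 or control replicate 3 this value was -0.22 or -0.24. The remaining rows were mt-Co2, mt-Atp8, mt-Atp6 and mt-Nd3, for subunits of complex IV, ATP synthase and complex I. Their log2 fold changes lay between -0.35 and -0.11 with adjusted p between 0.241 and 0.741, and the groups of all 4 overlapped.

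**Figure D2:**
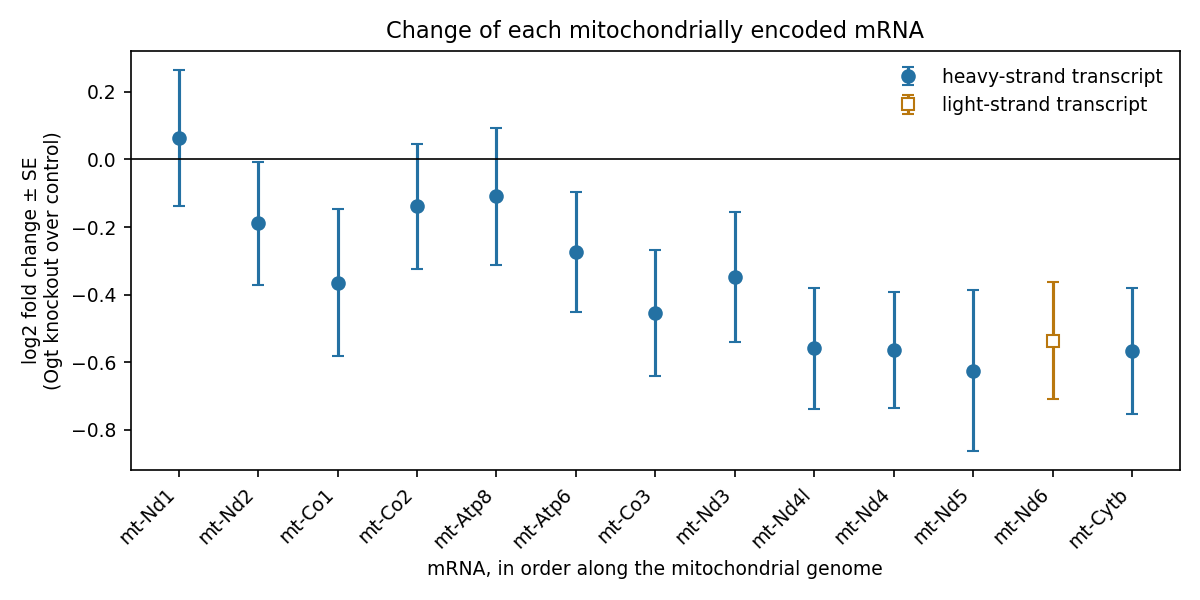
Log2 fold change, Ogt knockout over control, with its SE for each of the 13 mRNAs, ordered along the mitochondrial genome; filled circles are heavy-strand mRNAs and the open square is the light-strand mt-Nd6. The values run from 0.064 for mt-Nd1 to between -0.63 and -0.54 for the last 5 mRNAs, and none passed the adjusted threshold.

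Across the 12 heavy-strand mRNAs, the fold change decreased along the order of the genes, with a Spearman correlation of -0.87 between position in the order and log2 fold change. This is a description across genes that share the same 6 libraries and lie on common precursors. The composition of the mitochondrial pool does not depend on how libraries are scaled. It was computed from the same counts, so it restates this shift and is no separate support for it. As a share of the counts of the 13 mRNAs, mt-Nd1 made up 9.31% ± 0.529 in knockout and 7.01% ± 0.521 in control libraries (SD, n = 3 each). By the same measure mt-Cytb made up 7.75% ± 0.233 in knockout and 9.01% ± 0.179 in control libraries. In all, the groups did not overlap for 5 of the 13 shares. In CPM, those of 5579 of the 14005 tested genes did not overlap, which is a similar proportion. The shares are tied to each other within 1 pool, so they are not the same measure as the CPM of single genes. Of the 5, mt-Nd1, mt-Nd2 and mt-Co2 took a larger share in the knockout, and mt-Nd4 and mt-Cytb a smaller one. The share of mt-Nd4 was 5.95% ± 0.330 in knockout and 6.89% ± 0.145 in control libraries, while that of mt-Co1, the largest, was 38.4% ± 1.31 in knockout and 38.8% ± 1.47 in control libraries.

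The ratio of mt-Cytb to mt-Nd1 counts puts the ends of this range in 1 value per library. It was 0.874, 0.875 and 0.754 in knockout libraries, against 1.22, 1.36 and 1.29 in control libraries. The groups were well separated, by -0.63 on the log2 scale, and leaving out any 1 library gave -0.67 to -0.56. This ratio was picked after the values had been seen and is given as a description. The ratio of mt-Nd6 to the 12 heavy-strand mRNAs, which sets the light-strand mRNA against the rest, was 0.00961, 0.00928 and 0.00804 in knockout libraries, against 0.0106, 0.00957 and 0.0104 in control libraries. The groups overlapped slightly, and the difference of -0.19 on the log2 scale did not exceed the spread between libraries (two-sided exact permutation test, p = 0.2, adjusted p = 0.267 over the 4 values). The 4 values include the ratios of mt-Cytb to mt-Nd1 and of Lrpprc to Slirp, both picked after being seen. The adjusted p is therefore not that of the planned values alone.

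**Figure D3:**
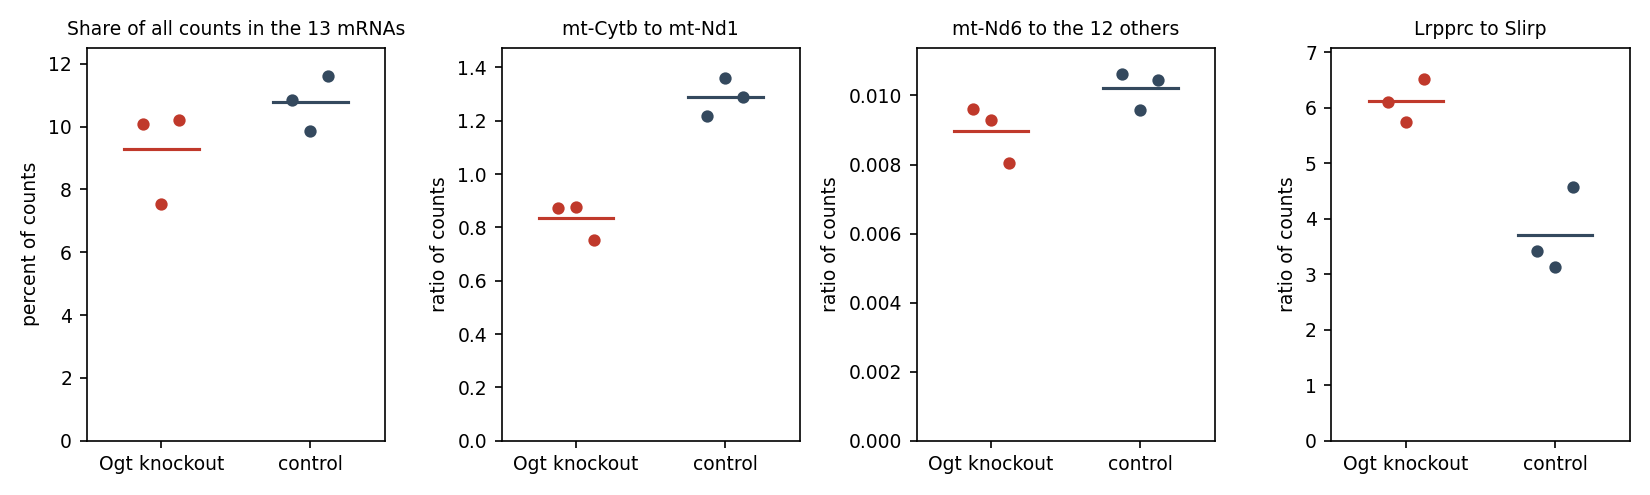
Values per library (points) and group means (lines), each axis from 0: the percent of all counts in the 13 mitochondrial mRNAs, and the count ratios mt-Cytb to mt-Nd1, mt-Nd6 to the 12 others, and Lrpprc to Slirp. The groups are apart for mt-Cytb to mt-Nd1 (0.754 to 0.875 in knockout, 1.22 to 1.36 in control) and for Lrpprc to Slirp, and overlap in the other panels.

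Of the 27 nuclear-encoded factors, 6 were higher in the knockout and 0 lower by the edgeR quasi-likelihood test, which is 22.2% against 9.33% of all genes. At an unadjusted p under 0.05, 10 were higher and none lower, against 16.5% and 17.5% of all genes. The log2 fold change was above 0 for 20 of the 27, against 46.3% of all genes, with a median of 0.23 against -0.047 over all genes. Every knockout library was above every control library for 11 of the 27, against 19.6% of all genes, and none showed the reverse. The count depended on single libraries. It was 10 without control replicate 1, where 13.6% of all genes were higher, and 2 without control replicate 3 or without knockout replicate 3, where 4.51% and 3.87% were. Without knockout replicate 1 it was 3, against 5.31% of all genes.

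**Figure D4:**
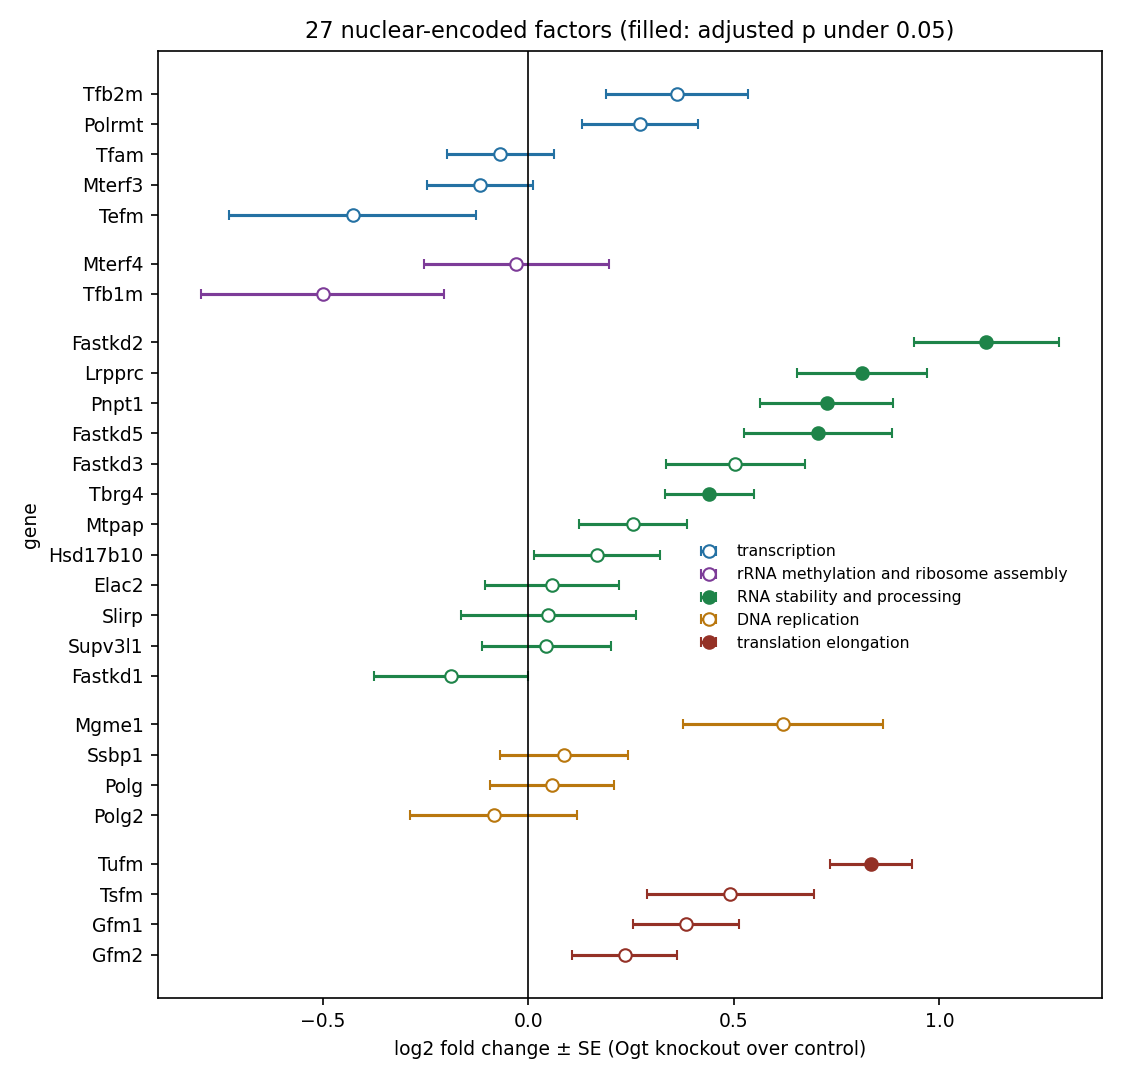
Log2 fold change, Ogt knockout over control, with its SE for the 27 nuclear-encoded factors grouped by role; filled points passed the adjusted threshold of 0.05 (edgeR). The 6 filled points, from 0.44 for Tbrg4 to 1.11 for Fastkd2, are 5 RNA stability and processing genes and the elongation factor Tufm.

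The calls lay in RNA stability and processing (5 of 12, median log2 fold change 0.35) and in translation elongation (1 of 4, median 0.44). The translation group also holds Gfm2, a ribosome recycling factor. The family of FAST kinase domain proteins, which bind mitochondrial RNA and act on its processing and stability, supplied 3 of the 6. Fastkd2, a component of mitochondrial RNA granules needed for the large ribosomal subunit, had 37.4, 33.4 and 42.3 CPM in knockout libraries, against 20.5, 13.5 and 18.3 CPM in control libraries. Its groups were far apart, with a log2 fold change of 1.11 ± 0.18 (adjusted p = 0.00606, edgeR quasi-likelihood test). Fastkd5, needed for cutting at precursor ends that have no tRNA beside them, had 15.1, 15.7 and 15.4 CPM in knockout libraries, against 11.9, 8.37 and 8.12 CPM in control libraries. The knockout libraries were close together and control replicate 1 was nearest to them, with a log2 fold change of 0.70 ± 0.18 (adjusted p = 0.0309, edgeR). The Fastkd5 row is uncertain, because the gene overlaps Ubox5, whose row carries the same symbol in the deposited table. Ubox5 by its identifier had a log2 fold change of 0.17 ± 0.20 (adjusted p = 0.598, edgeR).

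Tbrg4, also known as Fastkd4 and known to stabilise a set of mitochondrial mRNAs, had 38.7, 39.3 and 37.9 CPM in knockout libraries, against 31.2, 27.4 and 26.8 CPM in control libraries. The groups did not overlap, and the log2 fold change was 0.44 ± 0.11 (adjusted p = 0.0272, edgeR). Fastkd3, another member of the family, averaged 9.98 ± 0.846 CPM in knockout and 7.03 ± 0.626 CPM in control libraries (SD, n = 3 each), without overlap, and missed the threshold (log2 fold change 0.50 ± 0.17, adjusted p = 0.074). Fastkd1 averaged 6.60 ± 0.258 CPM in knockout and 7.52 ± 1.14 CPM in control libraries, with a log2 fold change of -0.19.

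Lrpprc encodes the protein that, bound to SLIRP, holds mitochondrial mRNAs in a stable and translatable state. It had 87.6, 77.2 and 86.8 CPM in knockout libraries, against 59.6, 39.05 and 44.7 CPM in control libraries. All knockout libraries were above all control libraries, with a log2 fold change of 0.81 ± 0.16 (adjusted p = 0.0128, edgeR). Its partner Slirp had 14.3, 13.4 and 13.3 CPM in knockout libraries, against 17.5, 12.5 and 9.77 CPM in control libraries. The knockout values lay inside the spread of the controls (log2 fold change 0.048 ± 0.21, adjusted p = 0.894). The count ratio of Lrpprc to Slirp was 6.11, 5.74 and 6.51 in knockout libraries, against 3.42, 3.13 and 4.57 in control libraries, a difference of 0.74 on the log2 scale without overlap. This ratio was also picked after the values had been seen, and the estimated counts of Slirp were not whole in any library, and how its fractions of reads arose was not tested.

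Pnpt1 encodes polynucleotide phosphorylase, which degrades mitochondrial RNA together with the helicase encoded by Supv3l1. Pnpt1 had 51.5, 41.9 and 48.2 CPM in knockout libraries, against 34.9, 23.6 and 27.1 CPM in control libraries. Again every knockout library was higher, with a log2 fold change of 0.73 ± 0.16 (adjusted p = 0.0197, edgeR). Supv3l1 averaged 14.1 ± 2.22 CPM in knockout and 13.7 ± 0.214 CPM in control libraries (SD, n = 3 each), a log2 fold change of 0.044. Other processing genes differed little. Mtpap, the mitochondrial poly(A) polymerase, Hsd17b10, a subunit of the RNase that cuts the 5′ ends of tRNAs, and Elac2, which cuts their 3′ ends, had log2 fold changes of 0.25, 0.17 and 0.057, with adjusted p of 0.214, 0.480 and 0.833 (edgeR).

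Among the 4 translation genes, Tufm, which delivers aminoacyl-tRNA to the mitochondrial ribosome, had the smallest adjusted p of the 27 factors. It had 105, 119 and 106 CPM in knockout libraries, against 65.3, 61.8 and 57.7 CPM in control libraries. The groups were far apart, and the log2 fold change was 0.83 ± 0.10 (adjusted p = 0.00288, edgeR quasi-likelihood test). Its exchange factor Tsfm averaged 14.9 ± 1.05 CPM in knockout and 10.6 ± 2.88 CPM in control libraries (SD, n = 3 each). The translocase Gfm1 averaged 47.4 ± 2.39 CPM in knockout and 36.3 ± 5.33 CPM in control libraries. Both had groups that did not overlap and both missed the threshold, with adjusted p of 0.130 for Tsfm and 0.074 for Gfm1 (edgeR). The ribosome recycling factor Gfm2 had a log2 fold change of 0.23 ± 0.13 (adjusted p = 0.234).

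None of the 5 transcription genes passed the threshold. Polrmt, the mitochondrial RNA polymerase, averaged 14.9 ± 1.56 CPM in knockout and 12.3 ± 0.343 CPM in control libraries (SD, n = 3 each), with a log2 fold change of 0.27 ± 0.14 (adjusted p = 0.214, edgeR). Tfb2m, which opens the promoter for the polymerase, had a log2 fold change of 0.36 ± 0.17 (adjusted p = 0.180). Tfam, which packages the genome and bends promoter DNA for initiation, had 39.1, 32.6 and 39.2 CPM in knockout libraries, against 44.1, 35.8 and 36.2 CPM in control libraries. The ranges overlapped, with a log2 fold change of -0.068 ± 0.13 (adjusted p = 0.748) that was 0.064 with library sizes unscaled. Tefm, the elongation factor of the polymerase, averaged 3.90 ± 0.705 CPM in knockout and 5.24 ± 1.89 CPM in control libraries, and its log2 fold change of -0.43 ± 0.30 did not pass (adjusted p = 0.355, edgeR) and was -0.045 without control replicate 1. Without that library the value of Tfb2m was 0.60. Mterf3, which restrains transcription in mouse, had a log2 fold change of -0.12 ± 0.13.

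Nor did either rRNA and ribosome assembly gene pass. Tfb1m, which methylates the small ribosomal subunit rRNA, had 2.90 ± 0.455 CPM in knockout and 4.11 ± 1.26 CPM in control libraries (SD, n = 3 each), with a log2 fold change of -0.50 ± 0.30 (adjusted p = 0.271, edgeR) that was -0.21 without control replicate 1. Mterf4, which brings a methyltransferase to the large subunit, had a log2 fold change of -0.029 ± 0.22. Of the 4 replication genes, none passed. Mgme1, an exonuclease that trims DNA ends, averaged 7.96 ± 0.841 CPM in knockout and 5.18 ± 1.48 CPM in control libraries without overlap, with a log2 fold change of 0.62 ± 0.24 (adjusted p = 0.114). The DNA polymerase genes Polg and Polg2 and the single-strand binding protein gene Ssbp1 had log2 fold changes between -0.084 and 0.088.

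**Figure D5:**
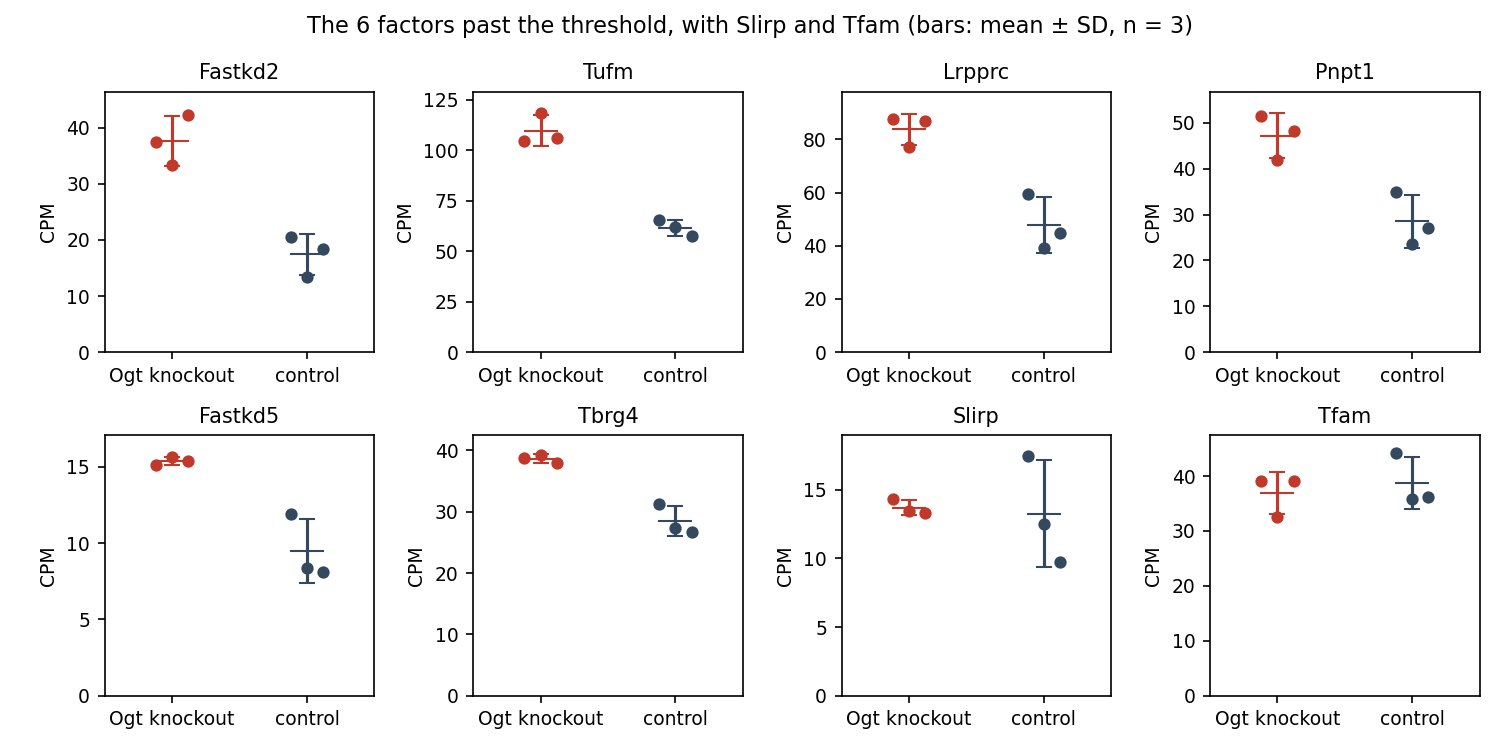
CPM per library (points) with mean ± SD (bars, n = 3) for the 6 factors past the threshold and for Slirp and Tfam, each axis from 0. All 3 knockout points lie above all 3 control points in the 6 called genes, while Slirp and Tfam overlap between groups.

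With 1 library left out in turn, Fastkd2 and Tufm kept their calls in all 6 fits, with adjusted p of at most 0.0338 and 0.0184 (edgeR). Lrpprc missed the threshold without control replicate 3 or knockout replicate 3, with adjusted p of at most 0.0554, and Pnpt1 without those or knockout replicate 1, with at most 0.0758. Tbrg4 and Fastkd5 kept theirs only without control replicate 1. Proliferation markers, which rise with the share of dividing crypt cells, summed to 602, 473 and 659 CPM in knockout libraries. The control sums were 534, 272 and 463 CPM, and 1 of 8 (Birc5) passed the threshold, higher in the knockout. All 8 had a log2 fold change above 0, against 46.3% of all genes, with a median of 0.54 against -0.047. At an unadjusted p under 0.05 (edgeR), 3 of the 8 were higher, against 16.5% of all genes. Control replicate 1 was the control nearest to the knockout in Fastkd2, Lrpprc, Pnpt1, Fastkd5, Tbrg4 and Tufm. It was also the highest control by the proliferation sum, and its part in these results was not tested.

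The promoters of the factors were searched for letters bound by regulators of mitochondrial genes, in RefSeq windows of GRCm38.p6. Of each window only the 250 bases before the start were searched, and not the 50 bases after it. Windows were found for 25 of the 27 factors, Mterf3 and Mtpap being the exceptions. The NRF1 motif, searched on both strands like the others, was in 2 of the 25 windows, or 8.0%, against 8.46% of 10851 tested genes with a window. The ETS letters CCGGAAGT, the core bound by GABP, were in 4 of the 25, or 16%, against 6.19% of tested genes. The E-box letters CACGTG were in none of the 25, against 9.52%. Of the 6 called genes only Fastkd5 held any of them. The 90 bases before its start are shown with those of Tfam, which was not called and holds the same ETS letters, in capitals.
Fastkd5, chr2:130630003-130630092, minus strand: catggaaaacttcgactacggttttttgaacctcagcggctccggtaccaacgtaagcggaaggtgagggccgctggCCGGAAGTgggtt
Tfam, chr10:71238045-71238134, minus strand: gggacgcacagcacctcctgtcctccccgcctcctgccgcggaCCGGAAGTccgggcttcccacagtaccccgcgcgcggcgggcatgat
Both runs read 5′ to 3′ toward the gene and end at the last base before its annotated start. A match of letters is a description, and a window without them says only that these letters are not in it.

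Among 35 other genes of mitochondrial RNA and translation, 6 were higher (17.1% against 9.33% of all genes) and 1 lower (2.86% against 9.37%), with a median log2 fold change of 0.27. The count of higher genes was 10 without control replicate 1, against 13.6% of all genes, and 3 without knockout replicate 2 or 3, where 4.23% and 3.87% of all genes were higher. Trmt10c, a subunit of the same RNase as Hsd17b10, had 33.6, 30.6 and 37.0 CPM in knockout libraries, against 19.8, 14.1 and 13.9 CPM in control libraries (log2 fold change 1.08 ± 0.17, adjusted p = 0.00586, edgeR). Trub2, a pseudouridine synthase of mitochondrial RNA granules, had 46.0, 41.5 and 33.2 CPM in knockout libraries, against 22.2, 17.7 and 20.6 CPM in control libraries (log2 fold change 0.995 ± 0.16, adjusted p = 0.00586, edgeR). Both were without overlap between groups. The 1 lower gene was Fastk, the founding member of the Fastkd family, whose mitochondrial form is known to stabilise mt-Nd6 mRNA. It had 23.7, 20.7 and 19.6 CPM in knockout libraries, against 36.8, 39.8 and 42.7 CPM in control libraries, with a log2 fold change of -0.90 ± 0.12 (adjusted p = 0.00385, edgeR).

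Of 13 regulators of mitochondrial biogenesis, 3 were higher (23.1% against 9.33% of all genes) and 1 lower (7.69% against 9.37%), with a median log2 fold change of 0.16. The higher count was 6 without control replicate 1, against 13.6% of all genes. It was 1 without any other single library, against 6.37% of all genes without control replicate 2 and 3.87% to 5.31% without each of the others. Hcfc1, a transcriptional cofactor that O-GlcNAc transferase both modifies and cleaves, averaged 181 ± 14 CPM in knockout and 62.9 ± 6.62 CPM in control libraries (SD, n = 3 each), with a log2 fold change of 1.53 ± 0.12 (adjusted p = 0.00121, edgeR). Ppargc1a, a coactivator of mitochondrial biogenesis, had 11.1, 12.7 and 10.9 CPM in knockout libraries, against 19.3, 35.6 and 32.8 CPM in control libraries. All knockout libraries were lower, with a log2 fold change of -1.34 ± 0.23 (adjusted p = 0.00819, edgeR). Nfe2l1, a stress-responsive transcription factor, had a log2 fold change of 0.32 ± 0.09 (adjusted p = 0.0423, edgeR).

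The nuclear genes whose proteins assemble with the mitochondrially encoded subunits went mostly the other way from the called factors. Of 71 tested subunits of complexes I, III, IV and V, 19 were lower (26.8% against 9.37% of all genes) and 1, Ndufb4, was higher, with a median log2 fold change of -0.17. The lower genes were 8 of 36 in complex I, 2 of 9 in complex III, 3 of 11 in complex IV and 6 of 15 in complex V. Ndufa3 of complex I averaged 6.07 ± 0.793 CPM in knockout and 18.8 ± 0.978 CPM in control libraries (SD, n = 3 each), with a log2 fold change of -1.63 ± 0.16 (adjusted p = 0.00162, edgeR). Cox7b of complex IV averaged 124 ± 7.39 CPM in knockout and 204 ± 5.81 CPM in control libraries, and Atp5d of ATP synthase 153 ± 20.1 CPM in knockout and 242 ± 12.6 CPM in control libraries, with log2 fold changes of -0.72 ± 0.10 and -0.67 ± 0.12 (adjusted p = 0.00385 and 0.0109, edgeR). The count of lower subunits was 9 with library sizes unscaled, where 6.13% of all genes were lower. Without knockout replicate 2 or 3 it was 4, against 3.75% and 3.25% of all genes.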

How the data were processed

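Per the labels' protocols, extraction used Trizol and library preparation the NEBNext Ultra RNA kit, which keeps no strand information. The submitters' processing notes name GRCm39 and mm39, while no source used here gives the aligner, counter, annotation or any removal of rRNA. In the 1 table the authors deposited, reads had been turned into an estimated count (expected count) and an FPKM value for each gene and library, per the file headers. In each library 7.68% to 8.09% of estimated counts deviated from a whole number by over 0.001, and 3 counts equal 0.159 to 0.207 CPM.

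Estimated counts were rounded to whole numbers, filtered with filterByExpr (minimum count 10, minimum total 15), scaled by TMM and tested with the quasi-likelihood test of edgeR 4.0.16 (R 4.3.3, robust), with Benjamini-Hochberg adjustment over all tested genes and a threshold of 0.05. CPM values use the TMM factors, and the SE comes from the F statistic. Single values per library were compared by exact permutation. Names, gene order, strand and mitochondrial sequences came from GENCODE M21, an older build whose coordinates were not used, and 12 members carry another symbol in the deposited table. The test was tried on simulated data, where it recovered 55 of 100 2-fold and 83 of 100 4-fold changes, with 10 false calls. Where no gene was changed, it called 2. No pair of libraries agreed within sampling noise. Alternatives were other scalings and filters, DESeq2 1.42.0, limma 3.58.1 on voom values and on log2(FPKM + 0.1) or log2(FPKM + 1), the replicate number as a block, and each library left out. The members and lists were chosen with earlier results of these data known. All members are named, and of each other list the 3 called genes with the smallest p. Ndufb4, Ubox5, the marker genes named and the ratios of mt-Cytb to mt-Nd1 and of Lrpprc to Slirp were picked after their values were seen. The correlation with gene order and the shares of the mitochondrial pool were not among the planned comparisons.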

Additional observations from a re-analysis of the deposited data

How the results depend on the processing

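Of 752 single-gene values under 19 alternative settings, 679 kept their direction and side of the threshold, 15 lost it, 26 gained it and 32 changed sign. The precision is limited by 3 libraries a group, and a fit with 1 library left out leaves a group of 2. The planned ratio of rRNAs to mRNAs was not run, as the table analysed has no rRNA row.

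The count of lower mitochondrial mRNAs (0) was 1 with upper quartile factors or voom and 6 with DESeq2. Whether the replicate numbers pair the libraries is not labelled, and the main fit does not pair them. Deviations of same-numbered libraries correlated at 0.27, 0.25 and 0.08, and those of other pairs at -0.27 to 0.07. Each library correlated best with its own number. With a replicate block, 2 mitochondrial mRNAs (mt-Nd4l and mt-Nd6) and 2 other genes of mitochondrial gene expression were lower. Of the regulators, 5 were higher and 2 lower. Over all tested genes, this block also called more genes higher and more genes lower than the main fit, which called 1307 and 1312. These added calls therefore came with a rise across all genes, and whether they exceeded it was not tested. Library size alone gave 2045 higher and 859 lower genes (1307 and 1312 with TMM), 5 higher regulators, and 4 higher and 9 lower subunits. DESeq2, which called 11% of all genes lower, gave 5 higher and 3 lower regulators and 2 higher subunits. Upper quartile factors, with 9.3% of all genes lower, gave 2 lower regulators. No count filter gave 1 higher regulator and a minimum of 1 CPM 2 lower regulators. Over all tested genes, DESeq2 also called more genes higher than the main fit, and no count filter fewer. The minimum of 1 CPM called more genes lower. On log2(FPKM + 0.1), log2(FPKM + 1) and with at least 5 FPKM, lower genes numbered 724, 738 and 596, higher regulators 5, 5 and 6, higher subunits 3, 3 and 4, and lower subunits 8, 9 and 11. These FPKM settings also called more genes higher than the main fit, from fewer tested genes. The added higher regulators and subunits therefore came with a rise across all genes. With at least 5 FPKM no regulator (0) was lower. The cause was not tested.

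Signs changed with library size alone for mt-Atp8 (0.017), Tfam (0.064), Polg2 (0.050), Mterf3 (0.017) and Mterf4 (0.11), and on the 3 FPKM settings for Tfam (0.060, 0.058 and 0.060) and Mterf3 (0.070, 0.066 and 0.070), for Mterf4 (0.12, 0.10 and 0.12) and, on the first and second, Polg2 (0.082 and 0.068).

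With 1 library left out, higher genes ranged from 549 to 1932 and lower from 460 to 1372. Lower mitochondrial mRNAs ranged from 0 to 1, higher factors from 2 to 10, higher other expression genes from 3 to 10 and lower from 1 to 2, higher regulators from 1 to 6 and lower from 1 to 2, and higher subunits from 0 to 3 and lower from 4 to 14. Log2 fold changes that changed sign ranged from -0.029 to 0.22 for mt-Nd1, -0.36 to 0.078 for mt-Atp8, -0.11 to 0.083 for Tfam, -0.030 to 0.17 for Supv3l1, -0.033 to 0.17 for Elac2, -0.15 to 0.091 for Polg2, -0.10 to 0.35 for Slirp, -0.12 to 0.13 for Mterf4 and -0.022 to 0.21 for Polg.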
